A study of Homo sapiens with 6 samples.

Results

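The mRNAs described here are those of β-catenin and of the proteins that mark it for destruction, 10 genes among the 18236 of the table. They were chosen by name: CTNNB1, which encodes β-catenin, the scaffolds APC, APC2 and AXIN1, the kinases CSNK1A1, GSK3A and GSK3B, and the ubiquitin ligase subunits and ligase BTRC, FBXW11 and SIAH1. All 10 were in the table and all 10 passed the minimum of a mean of 10 normalized counts. RNA-Seq was carried out on HCT116 colorectal cancer cells, a line that carries 1 wild-type and 1 mutant CTNNB1 allele. In the wild-type line (HCT116-CTNNB1 WT/-) the mutant allele had been disrupted, and in the mutant line (HCT116-CTNNB1 -/Δ45) the wild-type allele had been disrupted, so that both lines keep a single intact allele and neither is the parental line. Each line was measured in 3 replicates, untreated and grown in McCoy-5A medium with 10% fetal bovine serum. Each genotype is 1 cell line, so the genotype and anything else particular to a line cannot be told apart, and since no label says whether the replicates came from separate cultures, the p-values here cover no more than the variation among these samples.

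In unstimulated cells, APC and AXIN1 gather β-catenin with its kinases. CSNK1A1 phosphorylates a serine near the amino terminus of β-catenin, which primes the protein for GSK3, and the phosphorylated stretch is then bound by BTRC or FBXW11, the paralogous F-box proteins also called β-TrCP, for ubiquitination and degradation by the proteasome. Loss of APC or a mutation in this stretch of CTNNB1 is the usual first step by which Wnt signalling becomes constitutive in colorectal cancer. SIAH1 is a ligase of a separate route that does not need this phosphorylation.

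The allele that distinguishes the lines lies in that stretch. Its reference sequence is given because the kinases encoded by these mRNAs phosphorylate it and the ligase binds it. The window is chr3:41266088-41266147 on the plus strand of GRCh37, within exon 3 of CTNNB1 (41266017 to 41266244), and holds codons 29 to 48 of 781. The capitals mark, in order, the codons of serine 33, serine 37 and threonine 41, which GSK3 phosphorylates, and of serine 45, which CSNK1A1 phosphorylates and which the Δ45 allele lacks.
CTNNB1 codons 29 to 48: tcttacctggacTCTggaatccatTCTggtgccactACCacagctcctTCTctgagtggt
Gene counts do not separate alleles, so the presence of the deletion in each library was not analysed here.

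The libraries held 21.8 to 57.9 M reads in genes, from wild-type replicate 3 to mutant replicate 1, and the values used are these reads divided by 1 size factor per sample, called normalized counts. The replicates numbered 1 stood apart in both lines. Over all 14539 genes tested, the SD of the log2 difference between replicates of a line was 0.67 and 0.74 for pairs with wild-type replicate 1 against 0.34 for replicates 2 and 3, and 0.84 and 0.85 for pairs with mutant replicate 1 against 0.27. Between the lines, the SD of the log2 difference was 0.51 for the samples numbered 1, against 1.42 and 1.46 for those numbered 2 and 3. The differences between the lines are therefore given with all 6 libraries and, for the 10 mRNAs and the called genes around them, also without the pair numbered 1. The summed markers of colorectal epithelium were 61917 to 64978 normalized counts in wild-type and 46564 to 51542 in mutant cells, mostly KRT8 and KRT19. Single markers of this list did not all follow the sum. Of 10 tested by limma, 3 were called lower in mutant cells (EPCAM, CDH1 and CLDN7), 1 higher (KRT20) and 6 neither. KRT18, CDX2 and GPA33 had higher means in mutant cells but were not called. CDX1 was at no more than 2.1 normalized counts, GPA33 at no more than 15.5, CDH17 17.2, KRT20 37.1 and VIL1 40.0. The summed markers were 3583 to 4709 and 1977 to 4479 for fibroblasts, mostly COL1A1, and 120 to 153 and 69.0 to 89.8 for endothelium. For leukocytes they were 3450 to 5479 and 755 to 1330, mostly CD68, with PTPRC at no more than 4.4 and CD3E at no more than 1.9. Both lines are HCT116 cells grown in culture, so these sums describe levels of marker mRNAs and do not count cells of other types.

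Of the 10 mRNAs 1 was called different between the lines, BTRC, which was 2.42-fold higher in mutant cells. Its adjusted p was 0.0479 by limma on log2(normalized count + 1), just under the threshold of 0.05. APC (0.85 on the log2 scale, adjusted p = 0.0629) and GSK3A (-0.44, adjusted p = 0.0568) lay just outside it. The other 7 mRNAs, CTNNB1 among them, had adjusted p-values of 0.150 to 0.876. The share called among all genes tested was 27.3%, with 17.3% higher and 10.0% lower in mutant cells. The median log2 fold change was 0.28 over the 10 mRNAs and 0.24 over all genes. The unadjusted p was under 0.05 for 3 of the 10, APC, BTRC and GSK3A, and for 50.1% of all genes tested.

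**Figure D1:**
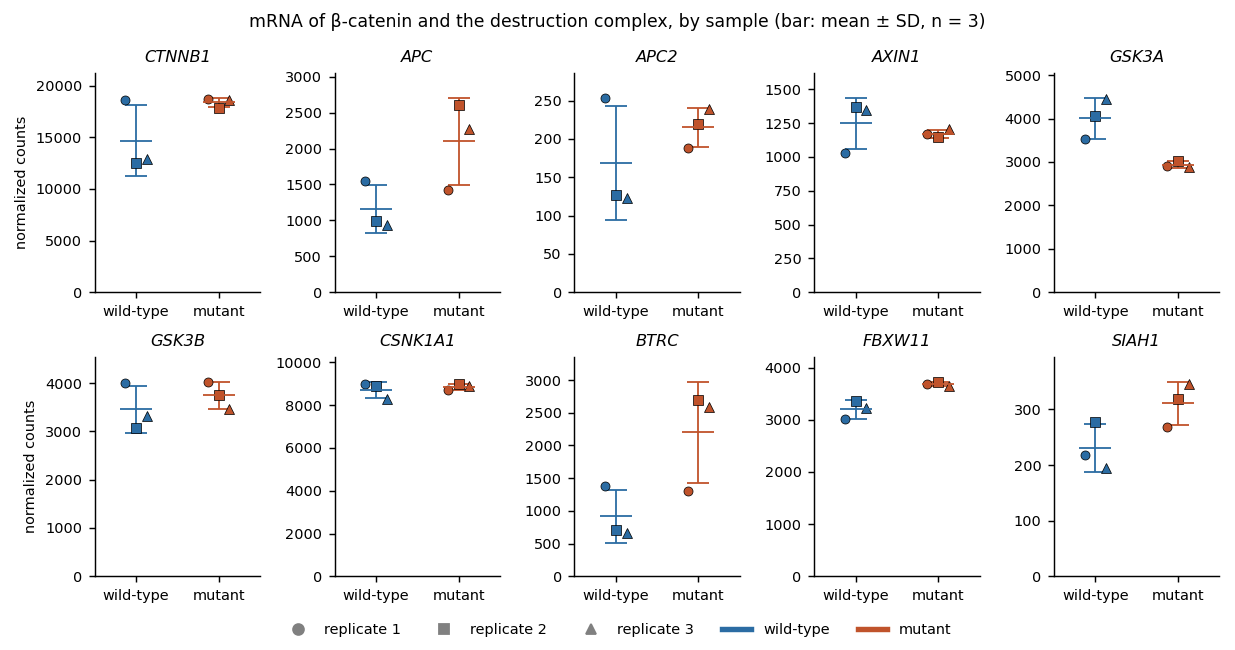
Normalized counts (vertical axes, from 0) of the 10 mRNAs in the 3 wild-type and 3 mutant samples, with the replicate number as the symbol and the mean ± SD as the bar. GSK3A and FBXW11 are the mRNAs whose samples do not overlap between the lines, and for CTNNB1, APC, APC2, GSK3B, CSNK1A1 and BTRC wild-type replicate 1 lies above the other wild-type samples.

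CTNNB1, on chromosome 3 (41236232 to 41301587, plus strand), was the most abundant of the 10 per length. Wild-type replicates 1, 2 and 3 had 18594, 12532 and 12923 normalized counts, against 18704, 17838 and 18582 in the mutant replicates in the same order. Wild-type replicate 1 thus lay within the range of the mutant samples, and the other wild-type samples lay below it. The mean was 14683 ± 3392 (SD, n = 3) in wild-type and 18375 ± 469 (SD, n = 3) in mutant cells. The log2 fold change of mutant over wild-type was 0.35 (95% confidence interval -0.07 to 0.76), with an adjusted p of 0.150 by limma. The exact two-sided permutation test gave p = 0.3, where the smallest that 3 samples against 3 can give is 0.1. Without wild-type replicate 1 the log2 fold change was 0.53 with an adjusted p of 0.0134, and without both libraries numbered 1 it was 0.52 (0.38 to 0.65), so the call on CTNNB1 turns on that library. In these fits the median over all genes was 0.34 and 0.39, and 7189 of 14498 and 11962 of 14529 genes were called. Part of CTNNB1 is overlapped by ULK4 on the opposite strand, and the strand setting of the counting is not given in the sources used here.

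The size of the CTNNB1 difference also depended on the scaling. Over the whole table, the median difference between the lines moved from 0.24 to 0.01 on the log2 scale when edgeR or DESeq2 set the scale from the recovered reads. By limma, the calls over all genes were 2517 higher and 1459 lower on the deposited scale and 2165 and 2127 after TMM rescaling. Where the test changed with the scale, they were 1783 and 1625 in edgeR and 3154 and 2999 in DESeq2, and edgeR with the authors' size factors gave 1380 and 850. CTNNB1 had a log2 fold change of 0.11 in edgeR (adjusted p = 0.612) and 0.10 in DESeq2 (adjusted p = 0.655). In limma with every sample centred on its median, where the calls were 1810 higher and 2470 lower, it was -0.0017 (adjusted p = 0.995).

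The scaffold APC, the large tumour suppressor that binds β-catenin and axin, lies on chromosome 5 (112043215 to 112181936). It had 1543, 994 and 943 normalized counts in wild-type and 1420, 2603 and 2273 in mutant replicates 1, 2 and 3. Mutant replicate 1 was below wild-type replicate 1, while mutant replicates 2 and 3 were above every wild-type sample. Mutant cells were 0.85 higher on the log2 scale (0.16 to 1.53), with an adjusted p of 0.0629. It passed the threshold in DESeq2 (0.62, adjusted p = 0.0461), when wild-type replicate 1 was left out (1.07, adjusted p = 0.0275) and when mutant replicate 1 was (1.10, adjusted p = 0.0158), and it was 1.33 (1.12 to 1.53) without both. It did not pass when any other library was left out (adjusted p = 0.188 to 0.209), nor in edgeR (adjusted p = 0.0717). Over all genes, 7189 of 14498 were called without wild-type replicate 1 and 8285 of 14570 without mutant replicate 1. With any other library left out, no more than 23 genes were called. APC2, the paralogue best known from the nervous system, was the least abundant of the 10 per length, with as few as 74 reads in a library. Its normalized counts were 254, 127 and 123 in wild-type and 188, 219 and 239 in mutant cells. The highest sample was wild-type replicate 1, and the other wild-type samples were below all mutant samples. The log2 fold change of APC2 was 0.43 (-0.37 to 1.23, adjusted p = 0.327) and it was 0.77 (adjusted p = 0.0336) without wild-type replicate 1 and 0.87 (0.57 to 1.16) without both libraries numbered 1. APC2 overlaps C19orf25 on the opposite strand.

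AXIN1, the scaffold that holds kinases and β-catenin together and is held to be limiting in amount, showed the opposite order. It had 1027, 1371 and 1344 normalized counts in wild-type and 1169, 1144 and 1203 in mutant replicates 1, 2 and 3. The lowest sample was wild-type replicate 1 and the mutant samples lay between it and the other wild-type samples. On the log2 scale the mutant cells differed by -0.08 (-0.50 to 0.34, adjusted p = 0.738). Without both libraries numbered 1 it was -0.21 (-0.38 to -0.04, adjusted p = 0.0254).

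Of the kinases, GSK3A had the clearest separation. It lies on chromosome 19 (42730377 to 42746777) and encodes GSK3α, which together with GSK3β phosphorylates the 3 residues amino-terminal to the priming site. Its normalized counts were 3518, 4053 and 4461 in wild-type and 2899, 3032 and 2882 in mutant cells. Every mutant sample was below every wild-type sample, and the difference had the same direction in all 3 replicate numbers. Its log2 fold change was -0.44 (-0.79 to -0.10, adjusted p = 0.0568), and it was -0.69 in edgeR (adjusted p = 0.0431), -0.71 in DESeq2 (adjusted p = 0.00886) and -0.52 (-0.69 to -0.36) without both libraries numbered 1. GSK3A also passed the threshold with 1 library left out, at -0.53 without wild-type replicate 1 (adjusted p = 0.0176) and at -0.43 when only mutant replicate 1 was removed (adjusted p = 0.0409). It did not pass with any of the other 4 libraries left out (adjusted p = 0.172 to 0.202). Over all genes, 7189 of 14498 were called without wild-type replicate 1 and 8285 of 14570 without mutant replicate 1. With any of the other 4 left out, no more than 23 genes were called. GSK3A overlaps ZNF526 on the opposite strand.

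GSK3B, which encodes GSK3β, had 4006, 3061 and 3312 normalized counts in wild-type and 4030, 3749 and 3455 in mutant cells. The ranges overlapped, with both samples numbered 1 at the top of their line. Its log2 fold change was 0.12 (-0.25 to 0.49, adjusted p = 0.551), turned to -0.10 in edgeR and was -0.23 after median centring. CSNK1A1, the casein kinase 1α that phosphorylates the residue lost in the mutant allele, varied least. It had 8981, 8901 and 8278 normalized counts in wild-type and 8710, 8973 and 8923 in mutant cells, so that all 6 samples lay in 1 narrow range. Its log2 fold change was 0.03 (-0.26 to 0.31, adjusted p = 0.876), and -0.21 (adjusted p = 0.280) in edgeR. The copies of this gene, CSNK1A1L and CSNK1A1P1, were listed at no more than 1.26 and 6.66 normalized counts. How reads that match CSNK1A1 and a copy were counted or left out is not given in the sources used here.

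The ligase subunit BTRC, or β-TrCP1, lies on chromosome 10 (103113790 to 103317078). It had 1381, 714 and 654 normalized counts in wild-type and 1301, 2698 and 2594 in mutant replicates 1, 2 and 3. Wild-type replicate 1 was above mutant replicate 1, so the lines overlapped, while among replicates 2 and 3 the mutant samples were on average 3.87-fold above the wild-type samples. BTRC had a log2 fold change of 1.27 (0.37 to 2.17, adjusted p = 0.0479 by limma) and the exact permutation test gave p = 0.2. The value was 1.04 in edgeR (adjusted p = 0.0499) and 1.04 in DESeq2 (adjusted p = 0.0102), and 1.95 (1.77 to 2.13, adjusted p = 1.0e-06) without both libraries numbered 1. Leaving out any 1 of the wild-type or mutant libraries numbered 2 or 3 lost the call, with adjusted p-values of 0.159 to 0.167. Each of these fits called no more than 23 genes over the whole table.

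FBXW11, or β-TrCP2, had 3015, 3363 and 3216 normalized counts in wild-type and 3693, 3728 and 3641 in mutant cells. Every mutant sample was above every wild-type sample, by a small margin. Its log2 fold change was 0.21 (-0.10 to 0.51, adjusted p = 0.227), and it was -0.034 in edgeR and -0.14 after median centring, against 0.16 (0.02 to 0.31, adjusted p = 0.0371) without both libraries numbered 1, so its direction rested on the deposited scaling. SIAH1, the RING ligase that reaches β-catenin through an adaptor chain, had 218, 278 and 195 normalized counts in wild-type and 269, 319 and 346 in mutant cells. Of the mutant samples, replicate 1 lay within the wild-type range. SIAH1 had a log2 fold change of 0.44 (-0.14 to 1.02, adjusted p = 0.182), 0.18 in edgeR (adjusted p = 0.558) and 0.51 (0.09 to 0.93, adjusted p = 0.0293) without both libraries numbered 1. SIAH1 overlaps LONP2 on the opposite strand.

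**Figure D2:**
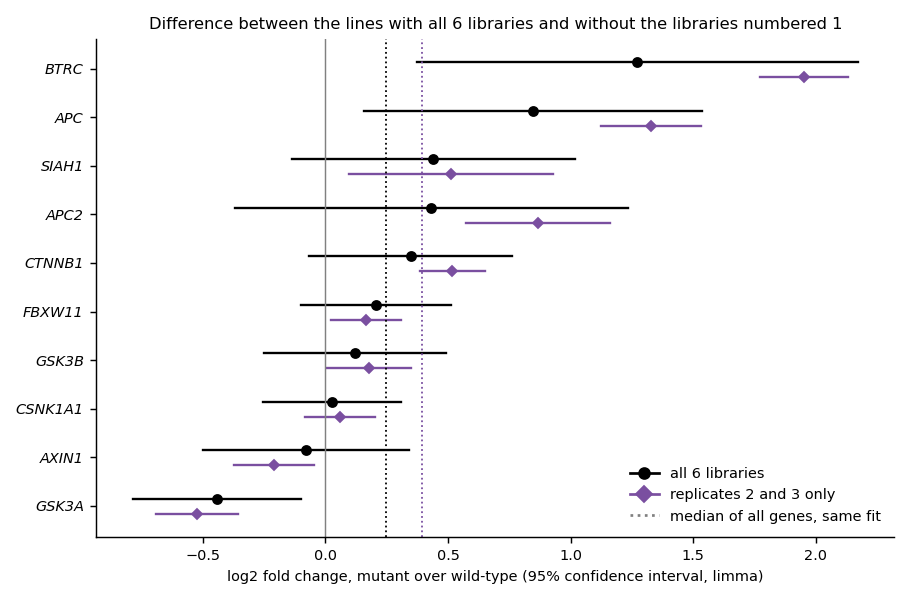
Log2 fold change of mutant over wild-type (horizontal axis) for the 10 mRNAs with its 95% confidence interval by limma, from all 6 libraries (black circles) and from replicates 2 and 3 alone (purple diamonds), with the median of all genes in each fit as a dotted line. BTRC moves from 1.27 to 1.95 and APC from 0.85 to 1.33, while CSNK1A1 stays at 0.03 and 0.06.

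Leaving out both libraries numbered 1 changed the picture for the 10 mRNAs as it did for the whole table. By limma, 8 of the 10 then passed the threshold, 6 higher (BTRC, APC, APC2, CTNNB1, SIAH1 and FBXW11) and 2 lower (GSK3A and AXIN1), where 82.3% of all genes passed it. GSK3B (0.18, adjusted p = 0.0549) and CSNK1A1 (0.06, adjusted p = 0.377) did not pass it. The values of the lines did not overlap for 2 of the 10 with all libraries, against 45.7% of all genes, and for 10 of 10 with replicates 2 and 3 alone, against 91.4% of all genes. Between the samples numbered 1 the log2 difference lay between -0.43 (APC2) and 0.30 (SIAH1), with BTRC at -0.09 and CTNNB1 at 0.01. Why the libraries numbered 1 stood apart was not tested. With all 6 libraries, edgeR called 2 of the 10 (BTRC and GSK3A, with 23.4% of all genes called) and DESeq2 called 3 (APC, BTRC and GSK3A, with 42.3% of all genes called).

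The 10 mRNAs spanned a wide range of abundance. Per kb of the canonical transcript, the level of CTNNB1 was 4011 (3423 to 5079) normalized counts in wild-type and 5019 (4872 to 5109) in mutant cells. GSK3A (1829) and CSNK1A1 (1627) came next in wild-type cells, with ranges that overlapped. In mutant cells CSNK1A1 (1655) stood above GSK3A (1340) and their ranges did not overlap. FBXW11 (726 in wild-type and 837 in mutant) and GSK3B (447 and 484) followed in both lines. AXIN1 (337) was above BTRC (152) in wild-type cells, while in mutant cells the level of BTRC (365, range 216 to 448) overlapped those of GSK3B and AXIN1 (316). SIAH1 (109 and 148) and APC (108 and 196) overlapped each other in both lines, and APC2 was lowest (16.5 and 21.1). When the length of all annotated exons was used, CTNNB1 stayed first and APC2 last, and some in between changed places, GSK3A and CSNK1A1 in wild-type cells among them.

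Ratios of a pair of mRNAs within a sample do not depend on how the sample was scaled, and 6 were compared. The log2 ratio of GSK3B over GSK3A was 0.19, -0.40 and -0.43 in wild-type and 0.47, 0.31 and 0.26 in mutant replicates 1, 2 and 3. All mutant samples were above all wild-type samples, although wild-type replicate 1 lay close to them. The mean differed by 0.56, a 1.48-fold shift towards the GSK3B mRNA (exact two-sided permutation p = 0.1, the smallest that 3 against 3 can give, and 0.3 adjusted over the 6 ratios). The log2 ratio of SIAH1 over its paralogue SIAH2 was -3.56, -3.80 and -4.46 in wild-type and -3.39, -2.61 and -2.54 in mutant cells. These samples did not overlap either, and the mean was 1.10 higher in mutant cells (exact permutation p = 0.1, adjusted 0.3).

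The remaining ratios overlapped between the lines. BTRC over FBXW11 had log2 ratios of -1.13, -2.23 and -2.29 in wild-type and -1.50, -0.47 and -0.49 in mutant cells, a difference of 1.07 with an exact permutation p of 0.2. FBXW11 was thus the more counted of the β-TrCP mRNAs in every sample, and by the smallest margin in mutant replicates 2 and 3. APC over APC2 was 0.41 higher in mutant cells (exact permutation p = 0.3), CTNNB1 over AXIN1 was 0.43 higher (exact permutation p = 0.4) and CTNNB1 over APC had a difference of -0.50 (exact permutation p = 0.3). The log2 ratio of CTNNB1 over AXIN1 was 4.176, 3.191 and 3.264 in wild-type and 3.999, 3.962 and 3.947 in mutant cells, so that wild-type replicate 1 alone was above the mutant samples. Without both libraries numbered 1 the samples of the lines did not overlap for any of the 6 ratios, and the differences were 0.70 for GSK3B over GSK3A, 1.79 for BTRC over FBXW11 and 0.73 for CTNNB1 over AXIN1. Of single genes, 45.7% did not overlap with all libraries and 91.4% without the pair. The share among ratios of other genes was not computed, so these counts do not set the 6 ratios apart.

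**Figure D3:**
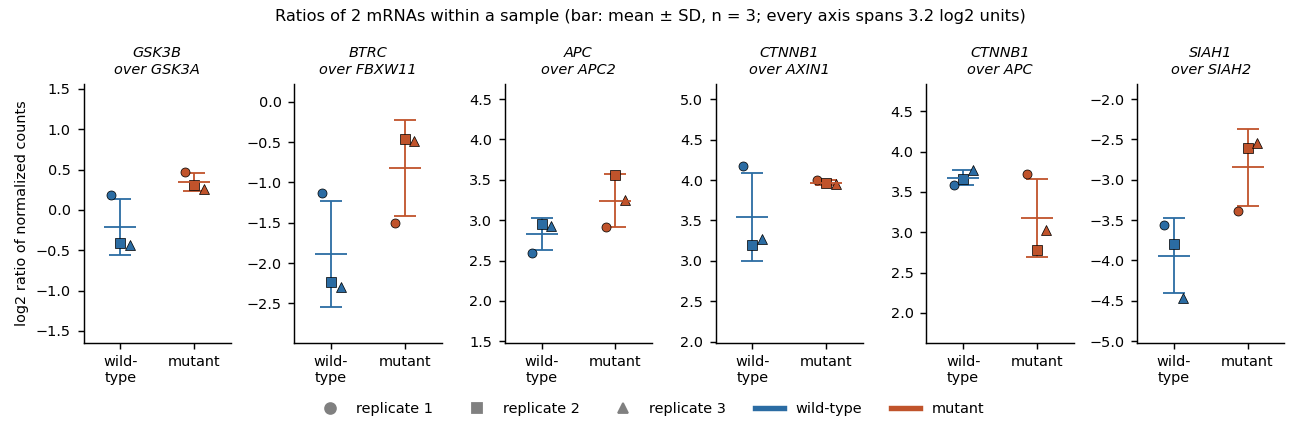
Log2 ratio of the normalized counts of 2 mRNAs within each sample (vertical axes, all spanning 3.2 log2 units), for the 3 wild-type and 3 mutant samples, with the mean ± SD as the bar. GSK3B over GSK3A and SIAH1 over SIAH2 are the ratios whose samples do not overlap between the lines.

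Around these 10 mRNAs, 54 genes for their partners, regulators and paralogues were followed, of which 51 were in the table and 49 were tested. By limma, 11 were higher, 5 lower and 33 not called, so 32.7% were called where the share over all genes was 27.3%, and their median log2 fold change was 0.13. AMER2, AMER3 and CTNND2 were not analysed here.

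Among the scaffold partners and turnover factors, 4 of 7 tested were higher and none lower, with a median log2 fold change of 0.86. Of all genes tested, 17.3% were higher and 10.0% lower, with a median of 0.24. AXIN2, the paralogue of AXIN1 and an established direct target of β-catenin and TCF, had 184, 133 and 142 normalized counts in wild-type and 991, 1039 and 1011 in mutant cells. All mutant samples, replicate 1 included, were far above all wild-type samples. Its log2 fold change was 2.74 (2.23 to 3.24, adjusted p = 0.00597), which is 6.66-fold, and it was 2.51 in edgeR (adjusted p = 0.00718). The difference was 2.42, 2.96 and 2.83 in replicate numbers 1, 2 and 3, so that it was also present between the libraries numbered 1. AMER1, a membrane adaptor for APC listed in the table by its older symbol FAM123B, had 168, 27.6 and 26.6 normalized counts in wild-type and 214, 569 and 542 in mutant cells. The lines did not overlap, but wild-type replicate 1 and mutant replicate 1 lay near each other, and the log2 difference was 0.35 for them against 4.31 and 4.30 for the numbers 2 and 3. Its log2 fold change was 2.99 (adjusted p = 0.0414). RNF146, the ligase that removes poly-ADP-ribosylated axin, was 0.96 higher on the log2 scale (adjusted p = 0.0425), and the deubiquitinase USP7 was 0.86 higher (adjusted p = 0.0454, and 0.0538 in edgeR). Between the samples numbered 1, the log2 difference was 0.27 for RNF146 and 0.02 for USP7.

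The subunits of PP2A, the phosphatase that works against these kinases and that also binds APC and axin, divided into 2 higher and 3 lower of 11 tested. The shares over all genes were 17.3% higher and 10.0% lower. The scaffold subunit PPP2R1A, the more abundant of its pair, had 14593, 17245 and 17777 normalized counts in wild-type and 10869, 11451 and 11593 in mutant cells. Its samples did not overlap and it fell by 0.54 on the log2 scale (adjusted p = 0.0413). Its paralogue PPP2R1B was 1.66 higher (adjusted p = 0.0499), with wild-type replicate 1 above mutant replicate 1. Among the regulatory subunits, PPP2R5B fell by 1.29 (adjusted p = 0.0420), PPP2R2A fell by 0.53 (adjusted p = 0.0460) and PPP2R5E was 0.91 higher (adjusted p = 0.0438, and 0.0513 in edgeR).

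The SCF core, which turns BTRC and FBXW11 into an active ubiquitin ligase, had 1 higher and 1 lower of 6 tested (17.3% and 10.0% of all genes). The cullin CUL1 had 1231, 645 and 689 normalized counts in wild-type and 1485, 4892 and 4890 in mutant cells. Mutant replicate 1 lay just above the highest wild-type sample, which was wild-type replicate 1. The log2 fold change of CUL1 was 2.01 (adjusted p = 0.0413), with differences of 0.27, 2.92 and 2.82 in replicate numbers 1, 2 and 3, where BTRC had -0.09, 1.92 and 1.98. UBE2M, the enzyme that conjugates NEDD8 to cullins, had 7084, 7440 and 9063 normalized counts in wild-type and 4838, 4271 and 4645 in mutant cells. It fell by 0.77 on the log2 scale (adjusted p = 0.0381) without overlap between the lines. In the SIAH branch, 1 of 4 was called, where the share over all genes was 27.3%. This was CACYBP, the adaptor that links SIAH1 to SKP1, which was 1.07 higher (adjusted p = 0.0429). SIAH2 had a log2 fold change of -0.66 and was not called (adjusted p = 0.0740).

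Of the other CK1 and CK2 kinases, 2 of 8 were higher and 1 lower (17.3% and 10.0% of all genes). CSNK1D and CSNK1G3 were 0.59 (adjusted p = 0.0404) and 0.57 (adjusted p = 0.0435) higher on the log2 scale, and neither was called in edgeR (0.36, adjusted p = 0.0796, and 0.34, adjusted p = 0.122). CSNK1E, the casein kinase 1ε that acts on Dishevelled, had 8253, 11690 and 12134 normalized counts in wild-type and 7537, 5481 and 5301 in mutant cells. The lines did not overlap and it fell by 0.81 (adjusted p = 0.0424). Among the 7 genes by which Wnt inhibits the complex, 1 was called by limma, where the share over all genes was 27.3%. This was DIXDC1, which polymerizes with Dishevelled and axin, 1.94 higher (adjusted p = 0.0417). DVL1 was lower without overlap between the lines (-0.65, adjusted p = 0.0525 by limma, and -0.94, adjusted p = 0.0438 in edgeR). DVL2 and FRAT2 were also lower and DVL3, FRAT1 and CCDC88A higher, none of them called by limma. Of the relatives and partners of β-catenin, none of 6 tested was called by limma, with 2 at an unadjusted p under 0.05 (50.1% of all genes), none called in edgeR (23.4%) and 3 in DESeq2 (42.3%). JUP, or plakoglobin, the closest relative of β-catenin, had a log2 fold change of -0.97 with an adjusted p of 0.0508 and 7318, 9322 and 9471 normalized counts in wild-type against 7249, 3514 and 3386 in mutant cells.

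The size of the differences in the called genes around the complex also changed when the pair of libraries numbered 1 was left out. Without that pair the log2 fold change of DIXDC1 was 2.83, against 1.94 with all libraries and 0.16 between the samples numbered 1. AMER1 was then at 4.31, CUL1 at 2.87, PPP2R1B at 2.57, CACYBP at 1.52, RNF146 at 1.298, USP7 at 1.28 and PPP2R5E at 1.27. PPP2R5B was at -1.86, CSNK1E at -1.14, UBE2M at -0.88, PPP2R2A at -0.68 and PPP2R1A at -0.60. AXIN2 (2.89), CSNK1D (0.69) and CSNK1G3 (0.63) moved least among the higher ones. JUP (-1.45) and SIAH2 (-1.05) passed the threshold without the pair, and also without wild-type replicate 1 alone (adjusted p = 0.0482 and 0.0198) or mutant replicate 1 alone (adjusted p = 0.00451 and 0.0304). Of all genes, 82.3% were called without the pair. Without wild-type replicate 1 alone 7189 of 14498 genes were called, and without mutant replicate 1 alone 8285 of 14570. With 1 of the libraries numbered 2 or 3 left out, AXIN2 kept its call without either mutant library (adjusted p = 0.0451 and 0.0450) and lost it without either wild-type library (adjusted p = 0.0746 and 0.0611). The other 15 called genes around the complex lost their calls in each of these 4 fits (adjusted p = 0.149 to 0.171). Over all genes these fits called 0 without wild-type replicate 2 or 3, and 23 and 20 without mutant replicate 2 or 3. The lost calls are therefore not particular to the genes around the complex.

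**Figure D4:**
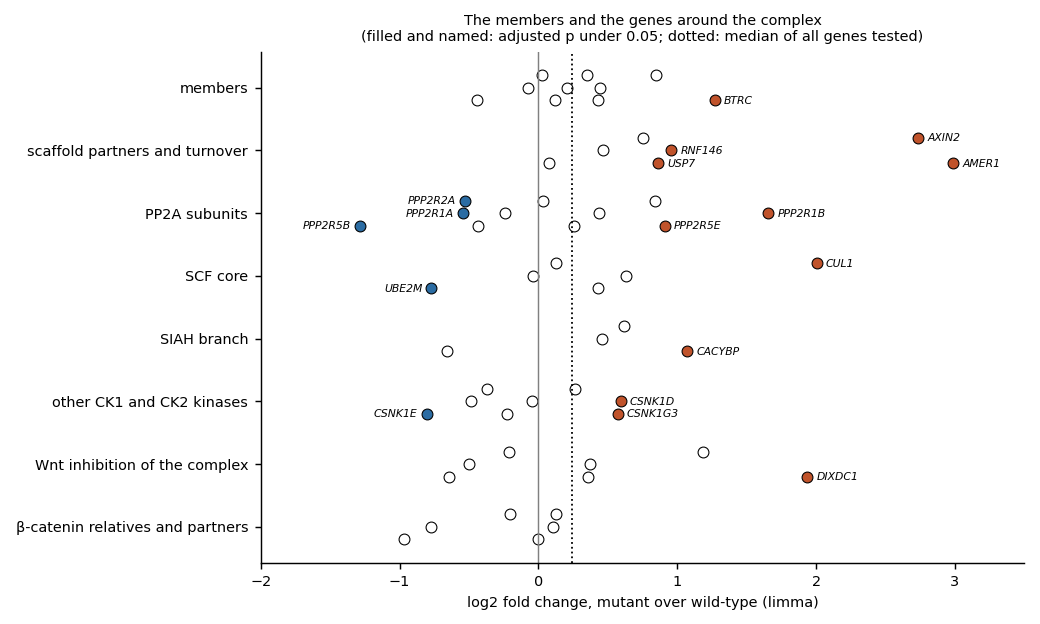
Log2 fold change of mutant over wild-type (horizontal axis, limma, all 6 libraries) for the 10 mRNAs (members) and the tested genes of the 7 surrounding lists, with genes at an adjusted p under 0.05 filled and named and the median of all genes as a dotted line. AMER1 at 2.99, AXIN2 at 2.74 and CUL1 at 2.01 lie farthest to the right, and PPP2R5B at -1.29 farthest to the left.

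The genes that lie beside the 10 mRNAs on their chromosomes were compared as a description. For each, up to 20 tested genes nearest on either side were taken from the GRCh37 annotation, which gave 30 for AXIN1 and 40 for the others. The 40 neighbours of BTRC had a median log2 fold change of -0.03 (interquartile range -0.42 to 0.44) where BTRC had 1.27. Those of CTNNB1 had a median of -0.09 (-0.48 to 0.83), those of APC 0.21 (-0.42 to 1.04) and those of GSK3A -0.36 (-0.89 to 0.05). GSK3A, at -0.44, thus lay within the middle of its neighbours, of which 1 was higher and 13 were lower, and APC lay within the upper part of its own. The 40 neighbours of AXIN2 had a median of 0.87 with 19 higher and none lower, and AXIN2 at 2.74 was above their upper quartile of 1.29.

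The genes whose pattern over the 6 samples was most like that of CTNNB1 were ACSF2, CEPT1, TMCC3, POMGNT1 and SLX4, among 11788 candidates whose mean was 100 normalized counts or more. Likeness was the root mean square difference of the log2 values, each centred on its gene's mean. It was 0.022 for ACSF2 and 0.036 to 0.045 for the others, against a median of 0.40 over all candidates. ACSF2, for example, had 690, 480 and 473 normalized counts in wild-type and 691, 671 and 682 in mutant cells, with wild-type replicate 1 level with the mutant samples. None of the other 9 mRNAs of the complex was among these 5 genes.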

How the data were processed

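RNA from 3 wild-type and 3 mutant samples was depleted of ribosomal RNA per the protocol (the molecule label says polyA), sequenced paired-end, mapped by the authors to hg19 with TopHat2 2.1.0 and counted per gene with HTSeq; the submitters' notes also name CASAVA 1.8.2. Annotation, strand setting and HTSeq and DESeq versions are not given in the sources used here. The deposited signal values are counts scaled by the authors with 1 size factor for each sample, a scale that moves every fold change of a sample together. Whole reads were recovered for 100% of values in each sample (tolerance 0.001). Columns with the authors' fold changes and p-values, from DESeq, were not used, and 0 other sample columns were left out.

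Tests used limma 3.58.1 (trend) in R 4.3.3 on log2(value + 1) for genes with a mean of at least 10, two-sided, with Benjamini-Hochberg adjustment over all genes tested, called under 0.05. edgeR 4.0.16 (quasi-likelihood) and DESeq2 1.42.0 were run on recovered reads, and further alternatives on scaling, filter, pseudocount, replicate block and left-out libraries are given in the closing section. Scripts were tested on simulated data. Permutation tests, which are exact, went through every split of the samples in Python 3.11.15 with numpy 2.4.6. Of 18236 symbols, 15673 matched GENCODE 44 on GRCh37 directly and 1482 by an older symbol. All 10 members were named, with AXIN2, AMER1, SIAH2, JUP, up to 3 called genes per list by smallest p, and the 5 genes most like CTNNB1; USP7, PPP2R1B and PPP2R2A were added after their values were seen. The members and lists were chosen with earlier results of these data known.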

Additional observations from a re-analysis of the deposited data

How the results depend on the processing

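The 5 genes most like CTNNB1 aside, 25 genes were named by rule. The direction was kept under all 17 alternatives for 21 of these 25, the exceptions being CTNNB1, GSK3B, CSNK1A1 and FBXW11. Of the 5 genes most like CTNNB1, TMCC3 kept its direction. Median centring turned ACSF2 to -0.011, CEPT1 to -0.047, POMGNT1 to -0.080 and SLX4 to -0.043. Median centring turned CTNNB1 to -0.0017, GSK3B to -0.23, CSNK1A1 to -0.32 and FBXW11 to -0.14. edgeR, DESeq2 and TMM rescaling turned GSK3B to -0.10, -0.11 and -0.11, CSNK1A1 to -0.21, -0.22 and -0.21 and FBXW11 to -0.034, -0.044 and -0.027. None of these negative values was called. CSNK1A1 ranged from -0.012 (without wild-type replicate 3) to 0.047 (without wild-type replicate 1) when 1 library was left out.

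Of the 10 members, edgeR, TMM rescaling and median centring called 2 each and DESeq2 called 3, while edgeR with the authors' size factors called 0 (3 at an unadjusted p under 0.05). Over all genes DESeq2 called 6153 and edgeR with the authors' size factors 2230, against 3976 by limma. Leaving out 1 library gave 0 to 8285 genes called, 0 to 5 members called, 2 to 5 ratios without overlap between the lines and a CTNNB1 log2 fold change of 0.25 to 0.53. The counts of 0 genes came without wild-type replicate 2 or 3, with 4157 and 4333 genes at an unadjusted p under 0.05, and without mutant replicate 2 or 3 the counts were 23 and 20. Leaving out both libraries numbered 1 gave 11962 genes, 8 members, 6 ratios and 0.52 for CTNNB1.

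The deviations of same-numbered samples from the mean of their line correlated at -0.53, -0.43 and -0.31, and those of wild-type replicate 1 and mutant replicate 2 at 0.52. These correlations cannot show whether the numbers mark pairs or a batch. The libraries numbered 1 differed less from each other (SD 0.51) than from the other replicates of their lines, and why was not tested. With a replicate block limma called 0 genes and 0 members (4305 genes and 1 member at an unadjusted p under 0.05). Precision is limited by 3 samples a line and, for APC2, by 74 to 297 reads a library.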
